A study of Danio rerio with 12 samples.

Results

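Immediate early transcription factors were followed in zebrafish that lack tet2 and tet3, the genes of enzymes that oxidise 5-methylcytosine in DNA. The set was chosen by symbol and held fosab, fosb, junba, junbb, atf3, egr1, egr2a, egr2b and egr3. These 9 symbols matched 10 of the 25680 genes measured, because egr2a stood under 2 identifiers. RNA was sequenced from whole embryos at 25 hours post fertilisation (hpf) and from hearts dissected by hand at 48 hpf. In double mutant (DM) fish both genes had been inactivated. Their siblings were wild type fish mixed with carriers of a single mutant copy of either or both genes, so sibling libraries are not a pure wild type control. A separate wild type (WT) group was sampled for hearts only. All groups are labelled with the AB strain background, while the growth protocol names AB and TU crosses as the source of wild type fish. Embryos gave 3 DM and 3 sibling libraries, and hearts gave 2 DM, 2 sibling and 2 WT libraries, numbered 1 and 3 in each group. No fish were treated. The labels do not say how many embryos or hearts were pooled in a library, or whether each library came from its own clutch. The p-values therefore describe variation among these libraries only, part of which may be technical.

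Immediate early genes are switched on within minutes of a stimulus such as a growth factor, a mechanical load, an injury or neuronal activity, before any new protein is made. Fos and Jun proteins pair through leucine zippers into the AP-1 complex, Atf3 is a related zipper protein induced by cell stress, and Egr proteins bind DNA through zinc fingers. Several of these genes are read out through serum response factor and its ERK-phosphorylated partners. Some members also have steady embryonic roles: egr2b, also called krox20, marks segments of the hindbrain and cells of the neural crest.

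Levels are given in CPM, the usual abbreviation for the counts of a gene scaled to a common library total. Embryo libraries held 8341467 to 16700992 counts and heart libraries 3289161 to 5963478, so that a count of 0 allowed up to 0.180 to 0.360 CPM in an embryo library and up to 0.503 to 0.912 CPM in a heart library (3 counts, counting error only). Transcripts of both mutated genes were counted in every library, tet2 at 77.7 to 351 CPM and tet3 at 35.0 to 119 CPM, and gene counts cannot tell whether they encode active protein. The 10 cardiomyocyte markers together took 3.93% to 5.26% of counts in DM hearts, 1.47% to 3.45% in sibling hearts and 3.16% to 4.92% in WT hearts, against 0.0424% to 0.0491% in embryos. Of the heart libraries 3 stood apart. Lens and retina markers took 0.177% of counts in the DM heart library numbered 1 and 0.445% in the sibling heart library numbered 1, against 0.00297% to 0.00873% in the other 4 hearts. The WT heart library numbered 3 held the highest neural marker share, 0.546% against 0.0671% to 0.401% in the other hearts. It also held the highest levels of most immediate early genes described here. The sibling heart library numbered 1, with a neural share of 0.401%, held the smallest summed share of these genes among the hearts (0.0285%). The part of neural transcripts in these levels was not tested.

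By the deposited coordinates (GRCz10), fosab (ENSDARG00000031683) lies on chromosome 20 from 46648591 to 46650720, fosb (ENSDARG00000055751) on chromosome 18 from 36788762 to 36793723, junba (ENSDARG00000074378) on chromosome 1 from 51098615 to 51100171 and junbb (ENSDARG00000104773) on chromosome 3 from 7768815 to 7770219. The stress-induced atf3 (ENSDARG00000007823) lies on chromosome 20 from 37891754 to 37897858. Among the zinc finger genes, egr1 (ENSDARG00000037421) lies on chromosome 14 from 21035277 to 21039140, egr2b (ENSDARG00000042826) on chromosome 12 from 8445995 to 8466435 and egr3 (ENSDARG00000089156) on chromosome 8 from 50738574 to 50744862. Most members are short genes: junbb spans 1.41 kb, junba 1.56 kb and fosab 2.13 kb, against a median span of 13.8 kb over all genes. The exceptions are egr2b with 20.4 kb and egr2a under ENSDARG00000044098 with 14.0 kb, close to the median. Both egr2a identifiers lie on chromosome 17, ENSDARG00000044098 from 43672966 to 43686933 and ENSDARG00000098502 from 13038697 to 13040546. They were close to undetected, with 1 count and 2 counts in all 12 libraries, and did not pass edgeR's count filter in any comparison. DESeq2, which was run without that filter, did not call either identifier in any comparison, and so few counts give egr2a no usable fold change.

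Hearts held far more immediate early transcript than embryos. In sibling hearts against sibling embryos, 6 of the 8 members tested were higher, fosab, fosb, junba, atf3, egr1 and egr3, and junbb was lower. The same edgeR fit called 23.5% of 19689 genes higher and 24.1% lower. The AP-1 gene fosab reached 98.2 and 329 CPM in sibling hearts, against 3.29, 1.63 and 4.95 CPM in sibling embryos. Its log2 fold change was 6.02 (SE 0.66, edgeR adjusted p = 5.40e-05). The 2 heart values were each far above all 3 embryo values.

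The zinc finger gene egr3 showed the steepest contrast among the members. It stood at 41.0 and 98.9 CPM in sibling hearts, against 0.719, 0.0740 and 1.46 CPM in sibling embryos, where these levels rest on 12, 1 and 13 counts. Its log2 fold change was 6.59 (SE 0.71, edgeR adjusted p = 4.76e-05). The related egr1 had 68.1 and 290 CPM in sibling hearts, against 4.61, 3.03 and 4.84 CPM in sibling embryos (log2 fold change 5.40, SE 0.58). For fosb, a close relative of fosab, the levels were 6.99 and 55.1 CPM in sibling hearts, against 0.958, 0.518 and 1.69 CPM in sibling embryos (log2 fold change 4.91, SE 0.97). The Jun gene junba had 39.2 and 86.2 CPM in sibling hearts, against 3.77, 1.41 and 5.63 CPM in sibling embryos (log2 fold change 4.12, SE 0.56). Each of these 4 genes was higher in every heart than in every embryo of the 12 libraries. The same held for 17.6% of all genes with 10 or more counts. The stress gene atf3 had a smaller fold change, with 24.0 and 52.7 CPM in sibling hearts against 5.27, 5.33 and 16.5 CPM in sibling embryos (log2 fold change 2.08, SE 0.58, edgeR adjusted p = 0.0114).

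The paralog junbb was lower, with 3.65 and 5.36 CPM in sibling hearts against 11.2, 10.4 and 22.5 CPM in sibling embryos (log2 fold change -1.72, SE 0.55, edgeR adjusted p = 0.0230). Within a library, junbb therefore gave 9.30 and 6.22 counts per 100 counts of junba in sibling hearts, against 297, 737 and 400 per 100 in sibling embryos. The hindbrain gene egr2b had 3.34 and 0.446 CPM in sibling hearts and 6.29, 4.66 and 2.93 CPM in sibling embryos, and did not pass the test (log2 fold change -1.47, SE 0.84, edgeR adjusted p = 0.165). The 2 sibling heart values of egr2b fell on either side of the lowest embryo value, and the higher of them came from the library with lens transcripts, whose part in that value was not tested.

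This tissue contrast is common in the transcriptome: edgeR called 47.6% of 19689 genes, 23.5% higher and 24.1% lower in sibling hearts, and DESeq2 called the same 7 members beside 44.2% of genes (23.4% higher and 20.8% lower). Over all 12 libraries, 6 members were higher in every heart than in every embryo, against 17.6% of all genes with 10 or more counts, and none was lower throughout, against 21.4%. The median level of fosab was 229.6 CPM over the 6 hearts and 5.05 CPM over the 6 embryos, and that of egr3 was 54.4 CPM over the hearts and 0.641 CPM over the embryos. The calls for fosb, atf3 and junbb did not hold without the sibling heart library numbered 3 (edgeR adjusted p = 0.0673, 0.152 and 0.0567). That of junbb was also lost without the sibling heart library numbered 1 (adjusted p = 0.124, edgeR) or the sibling embryo library numbered 3 (adjusted p = 0.0813, edgeR), and without the same heart library numbered 1 egr2b passed (adjusted p = 0.0476, edgeR). Hearts and embryos differed in tissue, stage, manual dissection, RNA kit and cDNA amplification at once, and these cannot be told apart. In bulk libraries, fewer cells of a type and less RNA per cell cannot be told apart either.

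In the same tissue contrast, the lists of related genes held calls in both directions, beside 23.5% of all genes called higher and 24.1% lower by edgeR. Of 27 other AP-1 and related genes tested, 11 were higher and 6 lower in sibling hearts, among them jund, a Jun gene that is broadly active (log2 fold change 3.04), and atf4a, a factor of the stress response to amino acid shortage (-2.96). Of 66 other immediate early genes, 28 were higher and 10 lower. The higher ones with the smallest p were klf9, a Krüppel-like factor responsive to glucocorticoid (4.11), and klf2a, which responds to blood flow in the zebrafish endocardium (2.80), while log2 fold changes in this list reached 8.36. Of 41 genes of serum response factor and ERK signalling, 14 were higher and 5 lower, among them the factor's coactivator mkl2b (2.70) and the ternary complex factor elk4 (2.08). Endocardial valve genes had 10 of 17 higher, including has2, which makes hyaluronan of the cardiac jelly (4.91), and nfatc1, an endocardial transcription factor (4.68). Heat shock and chaperone genes had 9 of 31 lower and 3 higher, and hsp90aa1.1, a muscle-rich Hsp90 gene in zebrafish embryos, was lower (-3.20). Hindbrain segment genes had 9 of 31 lower and 5 higher, with mafbb (-2.91) and hoxb1a (-3.07), both genes of hindbrain segments, among the lower. Neural crest and Schwann cell genes had 4 of 12 lower, including crestin (-4.33), a zebrafish neural crest transcript, and 1 higher, nrg1 (2.31), an ErbB ligand. The median log2 fold change was 4.51 over the 8 members tested and -0.06 over all genes.

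In embryos, the question was whether loss of tet2 and tet3 alters these genes at 25 hpf. With the replicate number as a block in the fit, 5 of the 7 members tested were called higher in DM embryos and none lower. They were fosab, junba, egr2b, egr1 and junbb, in a fit that called 4.37% of all genes higher and 9.39% lower. The labels do not give this pairing by number, and it is uncertain. In the fit without the block no member was called. DM embryos numbered 1, 2 and 3 had 8.92, 5.15 and 5.68 CPM of fosab, against 3.29, 1.63 and 4.95 CPM in sibling embryos of the same numbers. All 3 DM values exceeded all 3 sibling values, although the DM library numbered 2 and the sibling library numbered 3 differed by little. The log2 fold change with the block was 1.15 (SE 0.24, edgeR adjusted p = 0.00361), and without it the adjusted p was 0.722 (edgeR).

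The Jun gene junba had 6.99, 4.80 and 8.36 CPM in DM embryos, against 3.77, 1.41 and 5.63 CPM in sibling embryos. Each DM library exceeded the sibling library of its own number, while the groups overlapped. With the block the log2 fold change was 1.04 (SE 0.23, edgeR adjusted p = 0.00467), against an adjusted p = 0.722 without it, and junba was the only member that stayed called whichever pair of libraries was left out (edgeR adjusted p = 0.0173, 0.0410 and 7.40e-05 without pair 1, 2 and 3). Its paralog junbb had 17.2, 17.4 and 22.3 CPM in DM embryos, against 11.2, 10.4 and 22.5 CPM in sibling embryos. Pairs 1 and 2 were higher in DM and pair 3 was level, and the blocked log2 fold change was 0.51 (SE 0.16, edgeR adjusted p = 0.0379).

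The hindbrain marker egr2b had 12.2, 8.03 and 4.61 CPM in DM embryos, against 6.29, 4.66 and 2.93 CPM in sibling embryos. Library number 1 was highest and number 3 lowest in both groups, so the groups overlapped although every pair was higher in DM, with ratios of 1.94, 1.72 and 1.57. The blocked log2 fold change was 0.88 (SE 0.19, edgeR adjusted p = 0.00514), against an adjusted p = 0.722 without the block. For egr1 the levels were 6.83, 6.11 and 5.89 CPM in DM embryos, against 4.61, 3.03 and 4.84 CPM in sibling embryos. The egr1 values of the groups did not overlap, and the blocked log2 fold change was 0.68 (SE 0.21, edgeR adjusted p = 0.0346).

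The other 3 detected members were not called. DM embryos had 5.55, 6.59 and 13.8 CPM of atf3, against 5.27, 5.33 and 16.5 CPM in sibling embryos, and in both groups the library numbered 3 was the highest (blocked log2 fold change 0.09, SE 0.18, edgeR adjusted p = 0.757). Levels of fosb were 1.61, 0.360 and 0.429 CPM in DM embryos, resting on 20, 3 and 4 counts, against 0.958, 0.518 and 1.69 CPM in sibling embryos, resting on 16, 7 and 15 counts (blocked log2 fold change -0.19, SE 0.46, edgeR adjusted p = 0.788). Levels of egr3 were 0.563, 0.240 and 0.857 CPM in DM embryos, against 0.719, 0.0740 and 1.46 CPM in sibling embryos, and egr3 did not pass edgeR's count filter. DESeq2 gave egr3 a log2 fold change of -0.31 (SE 0.91, adjusted p = 0.981). Counts of fosb per 100 counts of fosab were 18.0, 6.98 and 7.55 in DM embryos and 29.1, 31.8 and 34.1 in sibling embryos. This ratio was singled out after its values were seen. Its fosab term was itself called higher in DM embryos with the block, so the ratio gives no separate evidence on fosb.

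**Figure D1:**
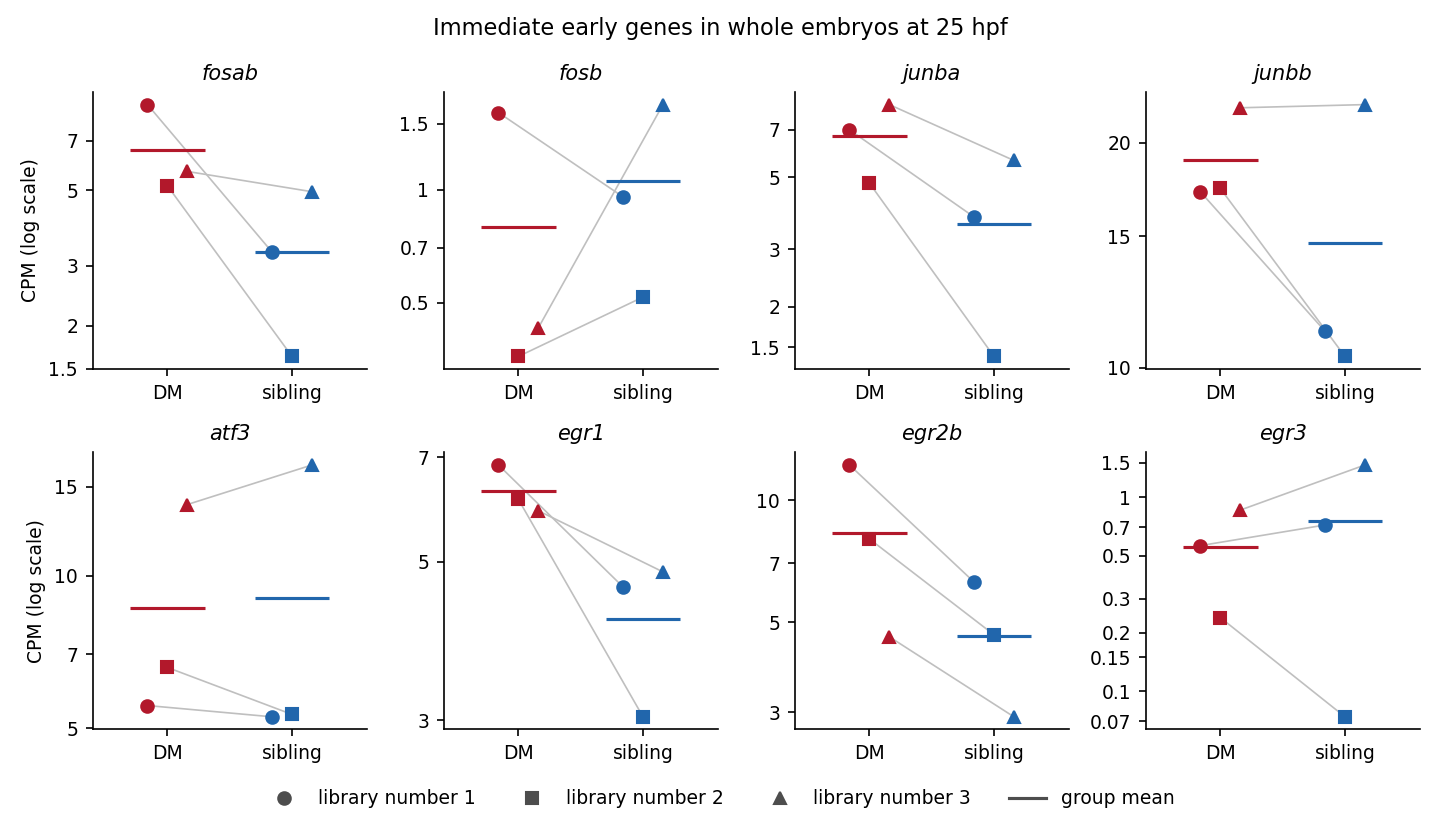
CPM (log scale) of 8 members in whole embryos at 25 hpf, one panel per gene, with DM left of sibling; each point is a library, its shape gives the library number, grey lines join equal numbers and bars are group means. The lines of fosab, junba, egr1 and egr2b slope down from DM to sibling in all 3 numbers, and those of atf3, fosb and egr3 do not share a direction.

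The calls depended on the block. Without the block, edgeR called 0 of 17831 genes (0.0%), with 585 genes and 3 members at an unadjusted p under 0.05, while limma-voom called 0 genes and DESeq2 called 36 genes (0.15%) and no member. With the block, edgeR called 13.8% of genes, 4.37% higher and 9.39% lower, and 5 of the 7 members tested were called higher. Groups did not overlap in 2 members, fosab and egr1, both higher in DM, against 3.42% of all genes. Without the pair numbered 1 junba alone was called, and the edgeR adjusted p was 0.0753 for fosab, 0.113 for egr2b, 0.165 for egr1 and 0.339 for junbb. The calls of egr1 and junbb were also lost without the pair numbered 2 (edgeR adjusted p = 0.205 and 0.250). They were lost as well when a trend of each library with gene span was removed (adjusted p = 0.119 and 0.185, edgeR), in which fosab, junba and egr2b remained called with log2 fold changes of 0.97, 0.85 and 0.89. In the authors' deposited table the log2 fold changes were 0.72 for fosab, 0.60 for junba, 0.56 for egr2b, 0.53 for egr1 and 0.33 for junbb, each with an adjusted p of 0.783. Neural markers took 0.0978%, 0.0520% and 0.0586% of counts in DM embryos numbered 1, 2 and 3, against 0.107%, 0.0652% and 0.106% in sibling embryos, and were lower in DM in every pair. Lens and retina markers were also lower in every pair, with 0.00521% to 0.00687% in DM embryos and 0.0144% to 0.0362% in sibling embryos. Skin markers were higher in every pair, with 3.28%, 4.20% and 3.801% in DM embryos, against 2.99%, 3.33% and 3.27% in sibling embryos. The part of these shares in the results was not tested.

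The lists of genes around the members held calls in both directions or lower calls alone. Over all genes, the blocked fit called 9.39% lower and 4.37% higher. With the block, edgeR called 1 of 23 other AP-1 and related genes higher, the CCAAT enhancer binding factor cebpd (log2 fold change 0.59), and 1 lower, the zipper repressor bach2b (-0.83). Of 60 other immediate early genes, 4 were higher and 5 lower. The response gene ier2 rose (0.58), while the growth regulator myca (-0.91), the flow-responsive klf2b (-0.68) and the clock gene per1b (-0.70) fell. Of 40 genes of serum response factor and ERK signalling, 7 fell and none rose, including the paralogous coactivators crebbpa (-0.69) and crebbpb (-0.71) and the ERK-responsive etv5b (-0.67) and etv5a (-0.57). In the heat shock list 1 of 31 genes was called, the chaperone hspa4a (-0.61). Endocardial valve genes fell in 4 of 16 cases and rose in none, including notch1b (-1.03) and the endothelial receptor gene tek (-0.998), the hyaluronan-binding proteoglycan gene vcana (-0.77) and again klf2b. Endothelial and endocardial markers took 0.0226%, 0.0158% and 0.0153% of counts in DM embryos, against 0.0274%, 0.0224% and 0.0236% in sibling embryos. These shares were lower in DM in every pair, while the groups overlapped. Their part in the calls of this list was not tested.

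Of 31 hindbrain genes listed around egr2b, 7 fell and 1 rose with the block, in a fit in which 9.39% of all genes were called lower and 4.37% higher. The gene that rose was irx7, an Iroquois factor of the hindbrain and midbrain (log2 fold change 1.17, SE 0.16, edgeR adjusted p = 2.6e-05), and DESeq2 called it without a block too. Those that fell included the guidance gene sema3bl (-1.12), the hindbrain segment marker epha4a (-0.98) and the homeobox gene pbx4 (-0.77). Of 12 neural crest and Schwann cell genes 4 fell and none rose: crestin (-1.25), pou3f1 (-0.76), sox2 (-0.61) and sox10 (-0.50). The median blocked log2 fold change was 0.68 over the 7 members tested, -0.23 over the hindbrain list, -0.12 over the other immediate early genes and 0.02 over all genes.

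In hearts the levels of most members differed widely between libraries of the same group. In each of the 3 groups the library numbered 3 held more fosab, fosb, junba, junbb, atf3 and egr1 than the library numbered 1. This was so for 6 of the 8 members with 10 or more counts, against 9.44% of all such genes, and 4 of them, fosab, fosb, junba and egr1, differed more than 2-fold in all 3 groups, against 0.75%. Together the members took 0.0298% and 0.0692% of counts in DM hearts numbered 1 and 3, 0.0285% and 0.0917% in sibling hearts and 0.0366% and 0.255% in WT hearts. The labels do not say that a number marks a shared batch.

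Levels of fosab were 117 and 327 CPM in DM hearts (libraries 1 and 3), 98.2 and 329 CPM in sibling hearts and 132 and 1065 CPM in WT hearts. Library 3 exceeded library 1 by 2.81 times in DM, 3.35 times in sibling and 8.06 times in WT hearts, and the 3 groups overlapped. Levels of fosb were 8.46 and 54.4 CPM in DM hearts, 6.99 and 55.1 CPM in sibling hearts and 8.55 and 216 CPM in WT hearts. Its libraries numbered 1 were close to each other, and those numbered 3 were higher by 6.43 times in DM, 7.88 times in sibling and 25.3 times in WT hearts.

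The Jun genes followed the same split. DM hearts had 25.0 and 52.3 CPM of junba, sibling hearts 39.2 and 86.2 CPM and WT hearts 48.8 and 395 CPM. The higher DM value of junba exceeded the lower value of both other groups, so the groups overlapped. For junbb the levels were 1.84 and 6.59 CPM in DM hearts, 3.65 and 5.36 CPM in sibling hearts and 1.01 and 19.6 CPM in WT hearts, resting on totals of 38, 36 and 107 counts. For atf3 they were 41.9 and 69.2 CPM in DM hearts, 24.0 and 52.7 CPM in sibling hearts and 21.8 and 210 CPM in WT hearts. The WT library numbered 3 was the highest heart for both genes, and the WT library numbered 1 the lowest.

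Among the Egr genes, egr1 followed the split, with 83.9 and 172 CPM in DM hearts, 68.1 and 290 CPM in sibling hearts and 85.5 and 538 CPM in WT hearts. By contrast, egr2b was higher in the libraries numbered 1 of DM and sibling hearts, with 2.94 and 0.235 CPM in DM hearts (16 counts and 1 count), 3.34 and 0.446 CPM in sibling hearts (11 and 2 counts) and 0 and 0.970 CPM in WT hearts (0 and 5 counts). The 2 libraries with the most egr2b were those with lens transcripts, and their part in its level was not tested.

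**Figure D2:**
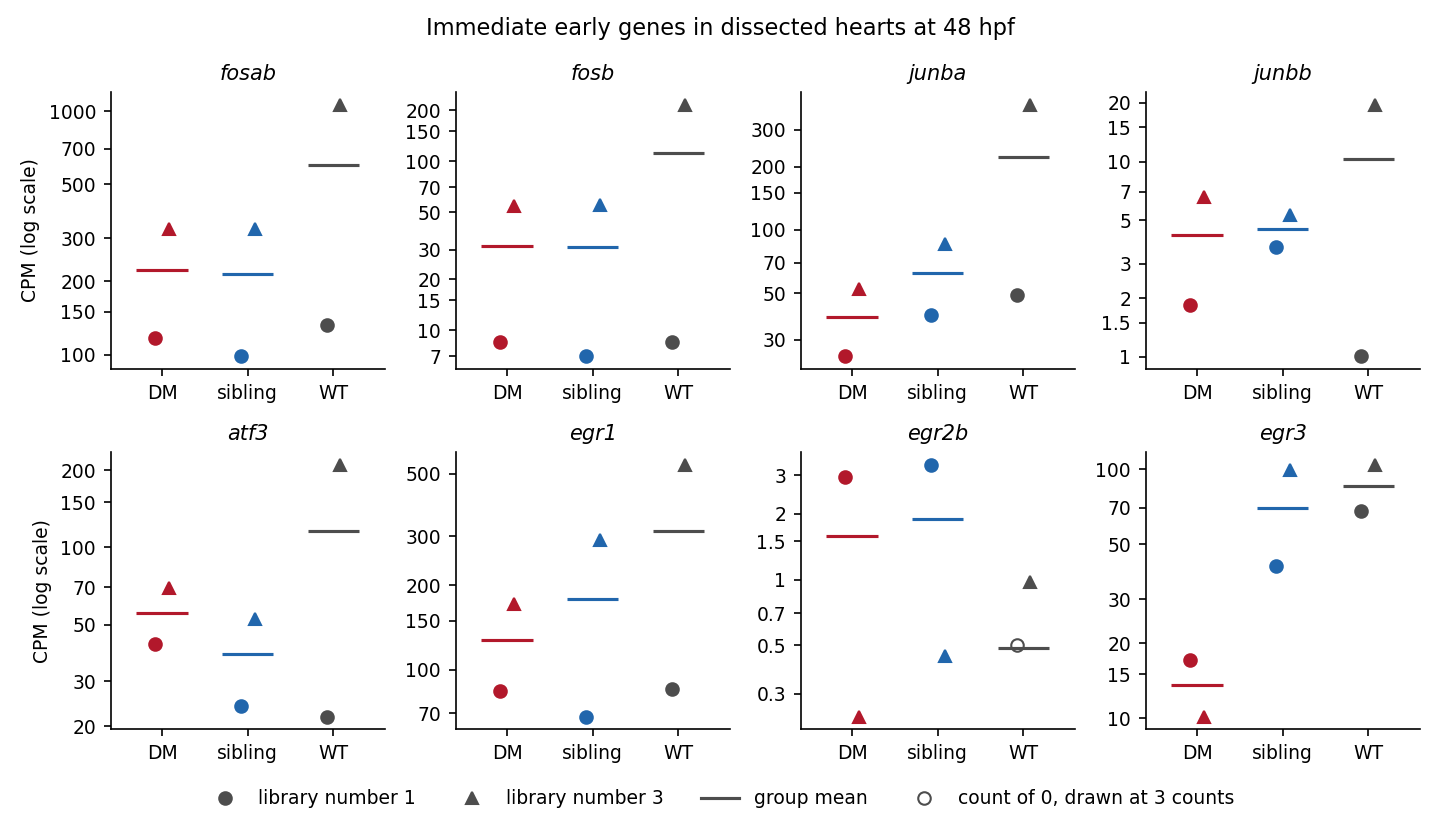
CPM (log scale) of 8 members in dissected hearts at 48 hpf, one panel per gene, with DM, sibling and WT from left to right; each point is a library, circles are number 1 and triangles number 3, bars are group means, and the open circle is a count of 0 drawn at the level of 3 counts. Triangles lie above circles in all groups for 6 genes, and egr3 is the gene whose 2 DM libraries lie below all sibling and WT libraries.

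DM hearts had a lower level of egr3 than every sibling and WT heart, a difference that DESeq2 called and edgeR did not. The levels were 17.1 and 10.1 CPM in DM hearts (93 and 43 counts), 41.0 and 98.9 CPM in sibling hearts and 67.7 and 104 CPM in WT hearts. Both DM values lay below all 4 sibling and WT values, and the DM library numbered 3, where other members were high, had the lowest egr3 of all hearts. DM hearts lay below both sibling hearts in 14.5% of genes and below both WT hearts in 8.73%. The share of genes below all 4 at once was not computed. Against siblings the log2 fold change was -2.41 (SE 0.55), and egr3 was the sole member at an unadjusted p under 0.05 (edgeR, unadjusted p = 0.00313, adjusted p = 0.9999). Against WT it was -2.95 (SE 0.57, edgeR, unadjusted p = 0.00110, adjusted p = 0.648).

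The call for egr3 depended on the tool. DESeq2 called it in both comparisons, against siblings with a log2 fold change of -2.43 (adjusted p = 0.0178) and against WT with -3.00 (adjusted p = 4.34e-04), as the only member called in either, beside 0.28% of genes called lower against siblings and 0.459% against WT. On simulated heart counts DESeq2 made 26 false calls for DM against siblings and 29 for DM against WT, nearly as many as true ones. In the authors' deposited table, made from the same libraries, egr3 had a log2 fold change of -1.67 against siblings (adjusted p of 0.0316). Against WT it had -2.52 there (adjusted p of 1.49e-06). Over fits that left out 1 heart library in turn, the edgeR log2 fold change ran from -2.94 to -1.58 against siblings and from -3.31 to -2.65 against WT, with adjusted p values of 0.795 to 1 and 0.380 to 0.9999. Without the sibling and DM libraries numbered 1, which held lens transcripts, it was -3.29 against siblings and -3.31 against WT, again not called. Sibling and WT hearts overlapped in egr3, and the log2 fold change of siblings over WT was -0.55 (SE 0.52, edgeR adjusted p = 0.929).

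Relative to egr1 and fosab counted in the same library, egr3 was lower in DM hearts than in sibling hearts, but not than in every WT heart. These ratios use the same egr3 counts as above, so they give no separate evidence on egr3. DM hearts held 20.4 and 5.88 counts of egr3 per 100 counts of egr1, sibling hearts 60.3 and 34.1, and WT hearts 79.2 and 19.4. Per 100 counts of fosab they held 14.7 and 3.10 in DM hearts, 41.8 and 30.1 in sibling hearts and 51.3 and 9.77 in WT hearts. By both ratios the DM hearts lay below both sibling hearts, while the DM library numbered 1 lay above the WT library numbered 3, whose egr1 and fosab were the highest of all. Endothelial and endocardial markers took 0.118% and 0.171% of counts in DM hearts, 0.104% and 0.198% in sibling hearts and 0.284% and 0.168% in WT hearts. In each library 9 of 9 measured markers were detected. These shares overlapped between all groups, and their part in the level of egr3 was not tested.

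**Figure D3:**
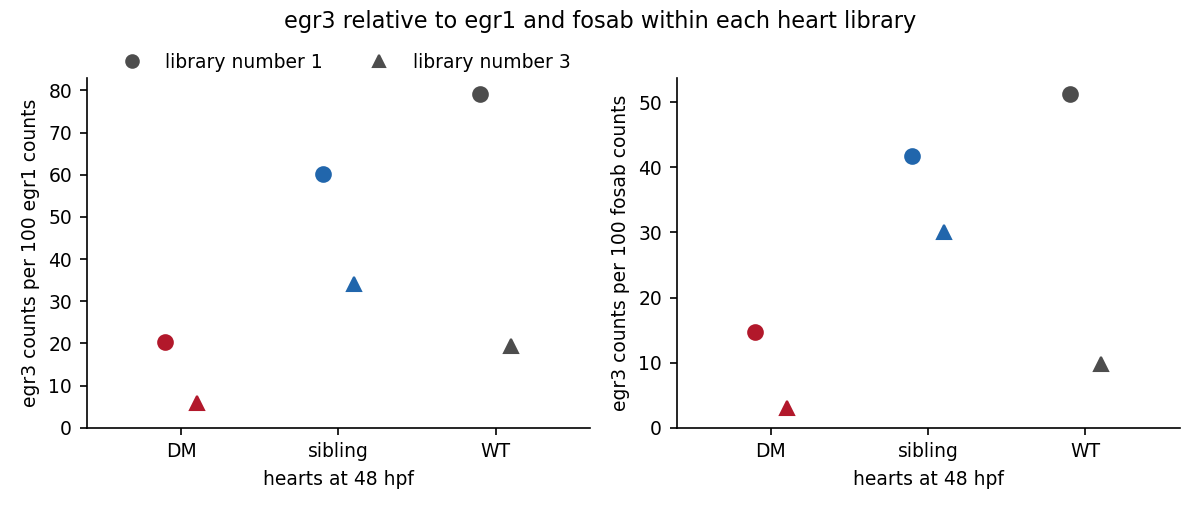
Counts of egr3 per 100 counts of egr1 (left) and of fosab (right) in each heart library, with DM, sibling and WT from left to right; circles are number 1 and triangles number 3. Both DM hearts lie below both sibling hearts in each panel, and the DM circle lies above the WT triangle.

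No other member was called in hearts. Each of the 3 heart comparisons had 0 of 16998 genes called by edgeR (0.0%), with 568 genes at an unadjusted p under 0.05 for DM against siblings, 1254 for DM against WT and 833 for siblings against WT. DESeq2 called 0.378%, 0.785% and 0.357% of the genes it tested in these comparisons, with egr3 as the member in each of the first 2 and no member in the third. DM hearts were lower than all sibling hearts in 14.5% of genes and lower than all WT hearts in 8.73%. Separation from either group alone is thus not rare in libraries of this number. That of egr3 was from both groups at once, for which the share of genes was not computed. No member was higher in both DM hearts than in all sibling hearts, as 16.2% of genes were, or than in all WT hearts, as 32.2% were. All members overlapped between sibling and WT hearts, where 27.3% of genes were higher in siblings without overlap and 7.49% lower. Against siblings, the edgeR log2 fold changes of the other members were 0.04 for fosab (SE 1.00), -0.72 for junba (SE 0.91), 0.51 for atf3 (SE 0.92), -0.51 for egr1 (SE 0.95) and within 0.22 of 0 for fosb, junbb and egr2b. Against WT, junba had the value farthest from 0, -2.77 (SE 0.96, edgeR, unadjusted p = 0.0225, adjusted p = 0.654, DESeq2 adjusted p = 0.0822), and fosab had -1.67, fosb -2.06, egr1 -1.53, junbb -1.52 and atf3 -1.31, each with an SE of 0.93 to 1.52. For egr2b it was 1.43 (SE 1.70), with 5 counts in all in WT hearts.

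These differences from WT rested on 1 library. Without the WT library numbered 3 the log2 fold changes of DM over WT were 0.46 for fosab, 1.60 for fosb, 0.28 for egr1, 1.75 for junbb and 1.04 for atf3, all of the opposite sign, and -0.64 for junba. Without the same library those of siblings over WT were 0.42 for fosab, 1.60 for fosb, 0.0851 for junba, 1.86 for junbb, 0.54 for atf3 and 0.80 for egr1, against -1.71, -2.06, -2.05, -1.41, -1.82 and -1.02 with it. The direction of egr3 held in both comparisons. Skin markers took 0.200% and 0.333% of counts in DM hearts, 0.265% and 0.185% in sibling hearts and 0.0706% and 0.0891% in WT hearts, and their part in the comparisons with WT was not tested, nor was that of the neural share of the WT library numbered 3. No gene of the listed neighbours was called by edgeR in hearts. DESeq2 called has2 lower in DM hearts, against siblings (-2.22) and against WT (-2.68). It called the hindbrain genes hnf1ba (-2.95) and hoxa3a (-1.94) lower against siblings. These 3 genes were named after their values were seen, and DESeq2's many false calls on simulated heart counts limit their calls too.

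**Figure D4:**
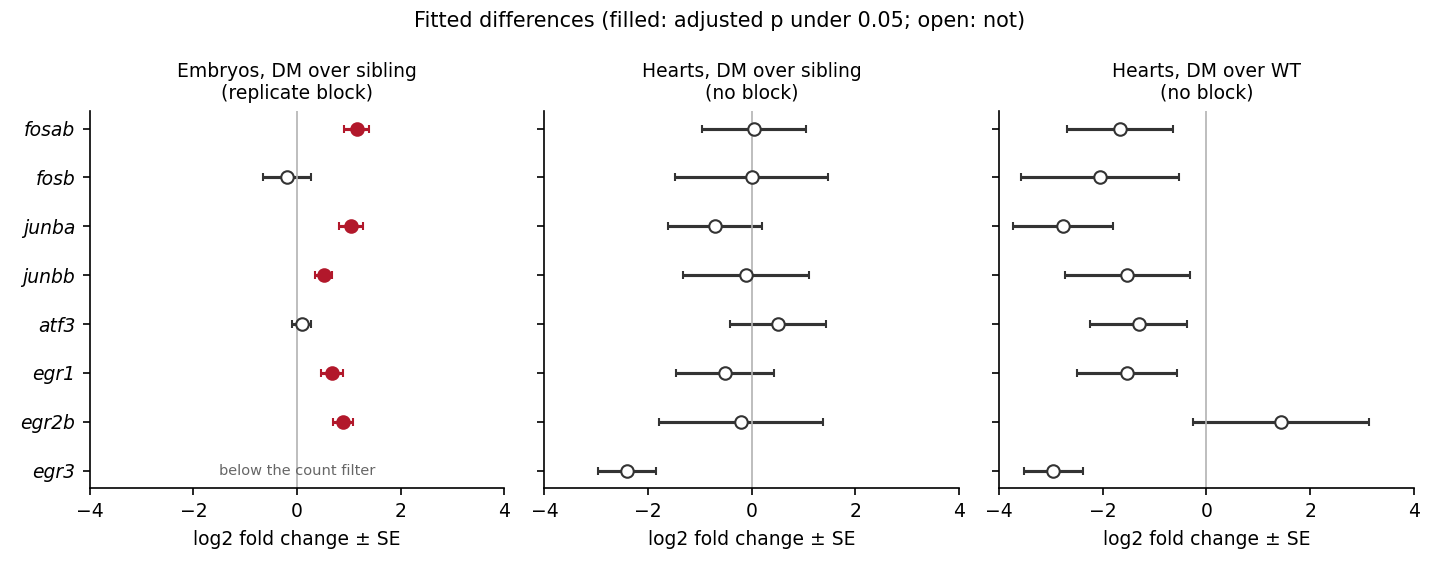
Log2 fold changes of 8 members with their SE (bars) for DM over sibling embryos with the replicate number as a block, DM over sibling hearts and DM over WT hearts; filled points have an edgeR adjusted p under 0.05. The 5 filled points are those of fosab, junba, junbb, egr1 and egr2b in embryos; the heart fits have no block, so their SE is not comparable with that of the blocked embryo fit.

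No member passed the test of whether the effect of the double mutation differed between the tissues. In a fit over both tissues, edgeR called 9 of 19689 genes (0.0457%), all lower, and none of the 8 members tested, of which 1 had an unadjusted p under 0.05. That member was junba, whose heart effect minus its embryo effect was -1.75 on the log2 scale (SE 0.76, edgeR, unadjusted p = 0.0409, adjusted p = 0.830). With the replicate number in each tissue as a block, 48 genes (0.244%) were called and junba had -1.82 (SE 0.37, edgeR adjusted p = 0.105). For egr3 the difference was -2.22 (SE 1.03, edgeR adjusted p = 0.848), with embryo levels close to the limit of detection. DESeq2 called 87 genes (0.461%) and no member.

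In hearts and sibling embryos, the libraries of a group that were high in a member were high in most others. Among DM embryos the members were split: fosab, fosb, egr1 and egr2b were highest in the library numbered 1. There junba, junbb, atf3 and egr3 were highest in the library numbered 3. To describe the likeness between genes, log2 CPM was centred within the 5 groups. Each gene was then correlated with the mean profile of the 8 members detected, over the same 12 libraries. The correlation was 0.977 for junba, 0.965 for fosab, 0.935 for junbb, 0.928 for fosb, 0.925 for egr1 and 0.902 for atf3, each of which is part of the profile. It was 0.562 for egr3 and 0.124 for egr2b. Among 19425 genes ranked, the 10 other genes most like the profile were CU550716.1 (0.978), si:dkey-92f12.2 (0.976), cgna (0.976), dusp1 (0.974), adoa (0.971), P2RY6 (0.971), fosl1a (0.970), crebl2 (0.969), PMM1 (0.968) and fosl2 (0.967). Of these, 3 are on the lists used above: dusp1, a phosphatase gene that limits MAP kinase activity, and the Fos relatives fosl1a and fosl2. Hearts held only 0 to 1.55 CPM of P2RY6, the most in the WT library numbered 3, so its correlation rests on few heart counts.

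For fosl1a the levels were 16.2 and 29.7 CPM in DM hearts, 17.3 and 51.6 CPM in sibling hearts and 14.9 and 401 CPM in WT hearts, so that the WT library numbered 3 again stood highest. In embryos fosl1a had 2.97, 3.24 and 3.64 CPM in DM embryos, against 2.04, 1.33 and 7.65 CPM in sibling embryos. For dusp1 the heart levels were 126 and 148 CPM in DM hearts, 77.8 and 92.4 CPM in sibling hearts and 63.7 and 171 CPM in WT hearts. Its 2 DM values lay above both sibling values, as in 16.2% of genes with 10 or more counts, and between the lower and the higher WT value. The points of each correlation share library and depth, and the WT heart library numbered 3 lies at the upper end of the profile.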

How the data were processed

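The authors deposited raw counts per gene for every library, with 18 columns of normalised values beside them, which were not used. Per the submitters' processing notes, the processing involved STAR 2.3.0e, HTSeq 0.6.0 and the GRCz10 build, with no role given for either tool. Per the labels, heart RNA (1 ng) was amplified to cDNA before library construction and embryo RNA was not. For each comparison the deposited tables hold the authors' own log2 fold change and p-value, raw and adjusted; per the file headers, those against WT run WT over the other group, and their sign is turned here. The tool behind them is not given in the sources used here. The 6 heart count columns that occur in more than 1 table were identical.

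The members, gene lists and alternatives were chosen with earlier results of these data known. All members are named, as are up to 4 genes of a list with the smallest p among those called, and the 10 genes most like the members' profile. The genes has2, hnf1ba and hoxa3a fall outside this rule.

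The main test was edgeR's quasi-likelihood F test (version 4.0.16, R 4.3.3) on the counts of all genes, with TMM factors and the filterByExpr filter, at a Benjamini-Hochberg FDR of 0.05 over all genes tested. Hearts formed a fit of 6 libraries, embryos another of 6, and the comparisons across tissues used 10. Each SE was taken as the fold change's size on the log2 scale divided by the root of F. CPM is the count over the library total. Shares of genes without overlap are over genes with 10 or more counts in the libraries compared. Equally numbered embryo libraries deviated from their group means together (correlations over genes of 0.847, 0.672 and 0.270 for numbers 1, 2 and 3). Unequally numbered ones had negative correlations (-0.769 to -0.0935), except sibling 2 with DM 3 at 0.512, above the equal pair numbered 3. Deviations within a group cancel out, so positive correlations of equal numbers push those of unequal numbers down. The negative values are thus no separate evidence of pairing. The pairing by number is therefore uncertain, and the labels give none. For embryos, values with the number as a block are given beside the others. Heart values are without the block unless stated, and the blocked fit called 0 of 16998 genes in each heart comparison. Alternatives were DESeq2 1.42.0, limma-voom (limma 3.58.1), RLE size factors, no count filter, each library left out, and the fits named in the text. The tests were checked on simulated counts. There edgeR without a block recovered 87 of 100 4-fold changes in embryos but 8 of 100 2-fold changes. With the block, on counts simulated with block effects, it recovered 89 of 100 2-fold changes. In hearts edgeR recovered 0 of 100 4-fold changes for DM against siblings and 1 of 100 for DM against WT. DESeq2 recovered 29 and 31 of 100 there, with 26 and 29 false calls, nearly as many as its true calls. The absence of edgeR calls therefore carries little information in hearts, and little about 2-fold changes in embryos without the block. The 2 egr2a identifiers were kept apart.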

Additional observations from a re-analysis of the deposited data

How the results depend on the processing

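In embryos, where edgeR without a block called 0 genes and 0 members, DESeq2 called 36 genes, the replicate block 2453 genes and 5 members, the block with the span trend removed 2324 and 3, and the block without pair 1, 2 or 3 536, 1227 and 3119 genes and 1, 3 and 5 members; leaving out 1 library without a block gave 0 to 2 genes. In hearts, where edgeR called 0 genes in each comparison, DESeq2 called 62 genes and 1 member for DM against siblings, 118 genes and 1 member for DM against WT and 52 genes for siblings against WT, and omitting the count filter gave 3 genes in each of the first 2. Heart libraries carry only 2 numbers, and equally numbered DM and sibling hearts deviated together (correlation 0.3005), WT and sibling hearts did not (-0.2495); the heart replicate block called 0 genes in each comparison, as did a block with the WT numbers crossed, chosen after seeing the data. For the difference between tissues, 9 genes became 87 with DESeq2, 17 with RLE size factors, 14 without the filter, 48 with the block and 0 to 41 with 1 library left out. For sibling hearts against sibling embryos, the main edgeR fit called 9370 of 19689 genes (47.6%) and 7 of the 8 members tested. Leaving out 1 library gave 4 to 7 members, and the share of all genes called in those fits is not given here. A block with the number shared by both tissues, chosen after seeing the data, called 8881 genes and 8 members. The following log2 fold changes turned sign, none of them called. For DM over sibling hearts, fosb was -0.00180 and became 0.00200 with DESeq2, 0.000340 with the compared groups only, 0.00174 without the filter and 0.14 with the replicate block; without the sibling and DM hearts numbered 1, fosab had -0.0106 and junbb 0.30. In embryos, atf3 had -0.12 with the block and span trend removed and -0.0143 with the block without pair 2, and fosb 0.45 with the block without pair 3. With 1 library left out, embryo values ran from -0.48 to 0.76 for atf3 and -0.51 to 0.19 for fosb. Those of DM over sibling hearts ran from -1.23 to 0.95 for egr1, -2.76 to 1.68 for egr2b, -1.004 to 1.23 for fosab, -2.02 to 2.23 for fosb, -1.45 to 0.0213 for junba and -1.40 to 0.58 for junbb. Those of DM over WT hearts ran from -2.16 to 1.04 for atf3, -2.31 to 0.28 for egr1, -1.12 to 5.81 for egr2b, -2.71 to 0.46 for fosab, -4.07 to 1.60 for fosb and -2.81 to 1.75 for junbb. Those of sibling over WT hearts ran from -2.66 to 0.54 for atf3, -2.49 to 0.80 for egr1, -0.28 to 6.06 for egr2b, -2.90 to 0.42 for fosab, -4.29 to 1.60 for fosb, -2.87 to 0.0851 for junba and -2.33 to 1.86 for junbb. Those of the difference between tissues ran from -0.26 to 1.16 for atf3, -1.98 to 0.26 for egr1, -3.65 to 0.84 for egr2b, -2.18 to 0.11 for fosab, -1.90 to 2.42 for fosb and -1.95 to 0.11 for junbb. The cause of these changes was not tested. Where an arm kept 1 library, it was assumed to vary like the other groups. The median of all genes moved by at most 0.0989 (log2) between TMM and RLE factors. Counts were low for egr2a throughout, for egr3 and fosb in embryos, and for egr2b and junbb in hearts, which limits their precision.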
